A study of Mus musculus with 7 samples.

Results

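The 9 hepatocyte identity transcription factors described here are *Hnf4a*, *Nr5a2*, *Foxa1*, *Foxa2*, *Foxa3*, *Cebpa*, *Cebpb*, *Onecut1* and *Prox1*. They were taken by gene symbol from the deposited table of read counts, and all 9 were found among its 14819 rows. Libraries from 4 WT and 3 WDR6-WKO samples were compared, each of untreated primary mouse hepatocytes from male donors, cultured overnight in William's E medium with serum. In WDR6-WKO mice exon 2 of *Wdr6* had been deleted with CRISPR–Cas9 in the whole body, so every cell type of the animal carried the deletion, and WT mice carried no edit. The default animals in the methods were purchased C57BL/6J mice at an age of 7 weeks, and no strain or age is stated separately for these donors. The number of founders is not given in the sources used here. Values below are means ± s.d. over these samples (n = 4 for WT and n = 3 for WDR6-WKO) unless a single library is named, and levels are CPM, counts scaled by edgeR's TMM method to a common library total. The labels do not tie samples to animals, so p-values measure the spread between samples only. The question was how the transcripts of the hepatocyte programme differed once *Wdr6* was lost.

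Hepatocyte identity is held by a network of DNA-binding proteins that bind each other's genes as well as the genes for plasma proteins and metabolic enzymes. HNF4A and NR5A2 (LRH-1) are nuclear receptors, the FOXA proteins are forkhead factors that open compacted chromatin, and C/EBPα and C/EBPβ are leucine zipper proteins that dimerize with each other. ONECUT1 (HNF-6) and PROX1 are homeobox proteins that act early in liver formation and stay on in adult hepatocytes, where PROX1 also works as a co-repressor of nuclear receptors. When hepatocytes are taken out of the liver and plated, much of this programme is known to decline.

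Transcripts of 5 of the factors were less abundant in WDR6-WKO than in WT hepatocytes, and 0 were more abundant. *Onecut1* fell the most, to 43.7% of its WT mean, and *Prox1* fell to 65.2%. *Hnf4a*, *Foxa1* and *Cebpa* fell to between 81.8% and 83.0%. *Nr5a2*, *Foxa2*, *Foxa3* and *Cebpb* did not pass the test. At an adjusted p under 0.05 (edgeR's quasi-likelihood test) 5 of the 9 were called lower, where 6.18% of all 14779 genes tested were lower and 6.65% were higher. DESeq2 and limma-voom also called 0 of the 9 higher, and at an unadjusted p under 0.05 the count was 0 by each tool. In the same 5 factors every WDR6-WKO library lay below every WT library, which was so for 11.7% of all genes. By the study's thresholds for DEGs (unadjusted p under 0.05 and a log2 change of 0.35 or more in size) 2 of the 9 were lower, *Onecut1* and *Prox1*, against 3.94% of all genes. The median log2 fold change was -0.27 over the 9 factors and 0.01 over all genes tested. Members of one network are not independent of each other, and these counts describe the 9 without a test of the list.

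**Figure D1:**
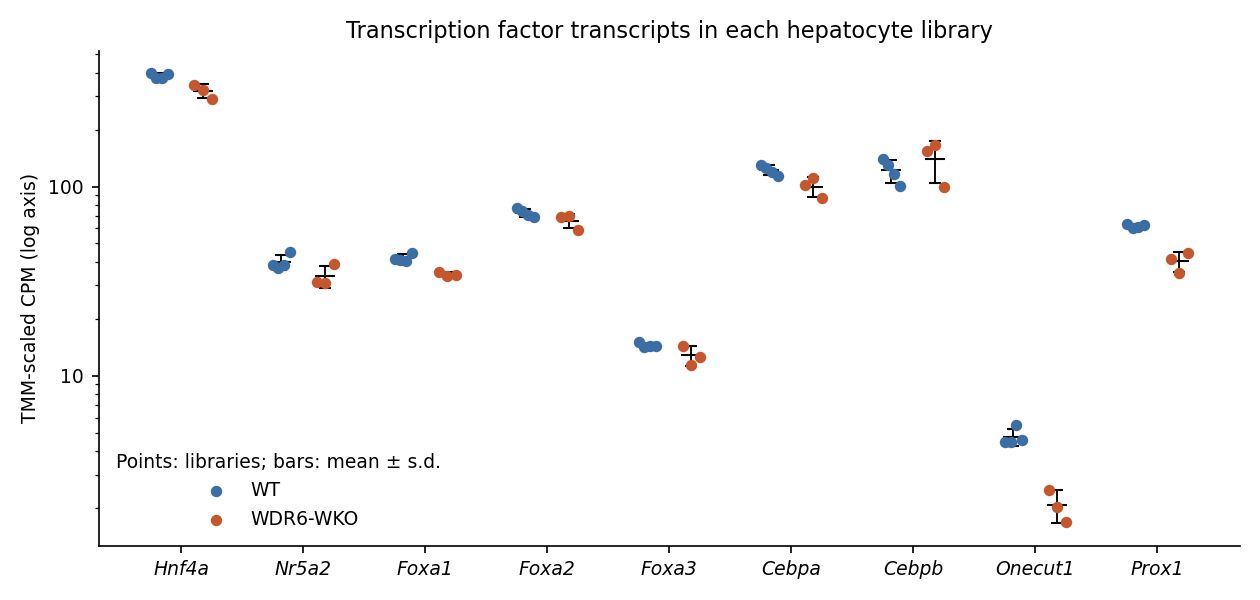
TMM-scaled CPM (counts relative to a common library total, log axis) of the 9 factors in each of the 4 WT and 3 WDR6-WKO libraries. Points are libraries and bars are the mean ± s.d. The groups are separate for *Hnf4a*, *Foxa1*, *Cebpa*, *Onecut1* and *Prox1* and overlap for the other 4.

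The libraries held 17816913 to 23668940 counted reads. *Wdr6* stood at 40.6 to 49.0 CPM in WT and at 2.23 to 2.58 CPM in WDR6-WKO. WDR6-WKO replicate 3 stood apart from the other libraries of its genotype, with a chi-square per gene of 14.3 to 15.9 against them, where all other pairs within a genotype gave 3.80 to 8.22. Calls that change without it are given beside the results they touch.

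The defining plasma protein of hepatocytes, albumin, was abundant in every library, with *Alb* at 7370 ± 730 CPM in WT and 6480 ± 363 in WDR6-WKO. Other secreted proteins on the list were abundant too, such as *Fgb* at 2480 and 1810 CPM and *Ahsg* at 1620 and 829, whereas some metabolic genes were low in both groups. *Cyp2e1*, a cytochrome P450, stood at 18 CPM in WT and 14.2 in WDR6-WKO, and *Pck1*, which controls gluconeogenesis, at 1.47 and 0.427. *Vim*, a mesenchymal filament gene, was at 1720 and 1840 CPM and the biliary keratin gene *Krt19* at 148 and 143. Of 12 listed hepatocyte markers 11 were tested, and edgeR called 6 lower in WDR6-WKO (*Ahsg*, *Cps1*, *Fgb*, *Pck1*, *Apoa1* and *Cyp2e1*) and 0 higher. The count of higher markers was 1 at an unadjusted p under 0.05 and 0 by DESeq2 after adjustment. Their summed level lay between 11600 and 13800 CPM in WT and between 9860 and 10500 in WDR6-WKO. The lower calls were 54.5% of those tested, where 6.18% of all genes were lower. The call of *Cyp2e1* was lost without WT replicate 2 or 3 or WDR6-WKO replicate 1 or 2. *Serpina1c* was called higher with scaling by library sizes alone, under the replicate block and without WT replicate 4. *Alb* was called lower without WT replicate 1. In bulk RNA fewer hepatocytes among the cells and less of a transcript per hepatocyte cannot be told apart.

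Markers of the other liver cells were present in both genotypes. Endothelial markers are of interest because lymphatic endothelium also makes *Prox1*. The summed level of the 8 tested was 348 to 392 CPM in WT and 337 to 393 in WDR6-WKO. In edgeR or DESeq2 0 of the 8 passed the test. At an unadjusted p under 0.05 in edgeR 1 was higher, *Flt4*, at 71.0 ± 1.67 and 77.0 ± 2.38 CPM. *Pdpn*, the other listed marker, was not among the genes tested. A lymphatic source of *Prox1* was not tested. Of 11 Kupffer cell markers, 2 were higher (*C1qc* and *C1qb*), with sums of 812 to 890 CPM in WT and 914 to 1120 in WDR6-WKO. Without WDR6-WKO replicate 3 the count was 6, with *C1qa*, *Cd5l*, *Csf1r* and *Marco* added, and it was 1 without WT replicate 1, WT replicate 2, WDR6-WKO replicate 1 or WDR6-WKO replicate 2. *Timd4* went the other way, at 3.65 ± 0.523 CPM in WT and 2.59 ± 0.278 in WDR6-WKO. Its ranges did not overlap, and it was a lower DEG by the study's thresholds (edgeR unadjusted p = 0.0157, adjusted p = 0.0880). The other 10 Kupffer cell markers had positive log2 fold changes. Of 6 cholangiocyte markers, 2 were higher (*Spp1* and *Sox9*), with sums of 3100 to 3390 and 3740 to 4340 CPM, of which *Spp1* made up 2980 and 3690 CPM on average. The call of *Sox9* was lost without WT replicate 1, 2 or 3 or WDR6-WKO replicate 1 or 2. Of 8 stellate cell markers 1 was higher (*Acta2*) and 1 lower (*Rgs5*), with sums of 509 to 550 and 516 to 587 CPM, and 3 were higher without WDR6-WKO replicate 3, with *Col3a1* and *Des* added. Of 13 markers of dedifferentiation in culture 2 were higher (*Lgals3* and *Sox9*) and 1 lower (*Afp*), with sums of 10900 to 11200 and 10700 to 11300 CPM. Without WDR6-WKO replicate 3 the higher count was 4, with *S100a6* and *Tmsb10* added, and it was 0 or 1 without any other single library. Of the markers tested, 33.3% of cholangiocyte, 18.2% of Kupffer cell, 15.4% of dedifferentiation and 12.5% of stellate cell markers were higher, against 6.65% of all genes. Lower were 12.5% of stellate cell and 7.69% of dedifferentiation markers, against 6.18% of all genes. The part of the other liver cells in the levels of the 9 factors was not tested.

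The promoters of the factors are shown because ONECUT1, FOXA and C/EBP proteins are known to bind the genes of the network, and because *Onecut1* and *Prox1* fell furthest. All 9 factors matched the RefSeq table of start sites (build GRCm38.p6), with 14 start sites in all, and the 250 bases before each were searched on both strands. Capitals mark a match to one of the searched motifs. The windows are given in this order, beginning with those before the upstream start of *Hnf4a* at chr2:163506607-163506856 (plus strand), an upstream start of *Foxa2* at chr2:148046970-148047219 (minus strand) and the start of *Foxa1* at chr12:57546112-57546361 (minus strand). After these come the windows before *Onecut1* at chr9:74861671-74861920 (plus strand) and an upstream start of *Prox1* at chr1:190170828-190171077 (minus strand).
Hnf4a: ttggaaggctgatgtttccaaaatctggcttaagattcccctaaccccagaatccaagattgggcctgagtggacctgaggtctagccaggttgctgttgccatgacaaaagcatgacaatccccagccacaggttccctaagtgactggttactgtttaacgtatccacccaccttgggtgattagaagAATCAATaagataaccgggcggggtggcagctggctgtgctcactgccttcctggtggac
Foxa2: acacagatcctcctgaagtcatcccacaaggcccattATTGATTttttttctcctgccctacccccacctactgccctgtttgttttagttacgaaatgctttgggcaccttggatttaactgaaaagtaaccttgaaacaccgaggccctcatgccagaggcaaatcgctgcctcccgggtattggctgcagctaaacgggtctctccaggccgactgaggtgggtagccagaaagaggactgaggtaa
Foxa1: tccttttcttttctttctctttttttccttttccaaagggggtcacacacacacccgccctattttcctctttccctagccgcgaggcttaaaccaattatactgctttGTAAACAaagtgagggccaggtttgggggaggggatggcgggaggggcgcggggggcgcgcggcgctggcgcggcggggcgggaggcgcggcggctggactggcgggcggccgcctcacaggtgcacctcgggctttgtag
Onecut1: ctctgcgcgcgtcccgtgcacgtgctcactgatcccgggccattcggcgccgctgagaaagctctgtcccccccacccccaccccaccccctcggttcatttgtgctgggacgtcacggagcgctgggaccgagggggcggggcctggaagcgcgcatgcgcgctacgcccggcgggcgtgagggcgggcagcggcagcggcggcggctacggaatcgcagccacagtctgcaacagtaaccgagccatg
Prox1: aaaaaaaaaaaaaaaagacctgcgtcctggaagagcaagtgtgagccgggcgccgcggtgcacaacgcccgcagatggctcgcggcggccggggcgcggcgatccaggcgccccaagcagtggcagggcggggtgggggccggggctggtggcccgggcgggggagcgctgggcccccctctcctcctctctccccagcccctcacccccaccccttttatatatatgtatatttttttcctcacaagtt

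The ONECUT motif ATTGATT was found in 2 of the 14 windows, 60 bases before the upstream start of *Hnf4a* (on the opposite strand, as AATCAAT) and 213 bases before a start of *Foxa2*. The same motif occurs in 2.61% of 32851 promoter windows of this length. The FOXA motif TGTTTAC was found in 1 window, 141 bases before *Foxa1* on the opposite strand, and in 3.17% of all windows. The C/EBP motif TTGCNNAA was found in 1 window, 243 bases before a start of *Nr5a2*, and in 9.56% of all windows. The HNF4 motif CAAAGTCCA and the NR5A2 motif CAAGGTCA were in 0 of the 14 windows, and in 0.384% and 1.33% of all windows. No match overlapped another. Nothing searched was found before *Onecut1* or *Prox1*. The window of *Onecut1* holds 31 CpG dinucleotides with a GC content of 71.6%. The windows of *Prox1* hold 20 and 11, with 64.8% and 56.0%. Such values were not particular to these genes. Before *Cebpb* and *Foxa3*, which did not pass the test, there were 41 and 18, with 81.6% and 68.8%. *Cebpa* had 22 with 66.4%, and the upstream start of *Hnf4a* 3 with 51.2%. The counts are per gene, so reads from the different start sites of *Hnf4a*, *Foxa2*, *Prox1* and *Nr5a2* cannot be separated.

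*Onecut1* encodes a factor needed for the development of liver and bile ducts. It was the least abundant of the 9 and had the largest difference. It was covered by 88, 85, 103 and 91 reads in the WT libraries and by 60, 43 and 30 in the WDR6-WKO libraries, in order of replicate number. These correspond to 4.44, 4.45, 5.48 and 4.57 CPM in WT and 2.49, 2.03 and 1.68 CPM in WDR6-WKO. The highest WDR6-WKO library was below the lowest WT library, with a mean of 4.73 ± 0.499 CPM against 2.07 ± 0.410. On the log2 scale the change was -1.18 ± 0.18 (s.e., edgeR adjusted p = 0.000438). An exact two-sided permutation test gave p = 0.0286, the smallest that 4 samples against 3 allow. The annotation places *Onecut1* on chromosome 9 from 74861921 to 74891781 on the plus strand. A lincRNA gene of the same strand, *Gm20649*, shares 2171 of its exon bases, and 54.4% of the 50-base sequences of the *Onecut1* transcript also occur in transcripts of *Gm20649* or *Onecut3*. *Gm20649* and *Onecut3* were not analysed here, so how reads were divided among these genes is not known.

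*Prox1* lies on chromosome 1 from 190118035 to 190170714. Its levels in the 4 WT libraries were nearly the same, at 63.0, 60.7, 60.8 and 62.8 CPM. The WDR6-WKO libraries stood at 41.3, 35 and 44.7 CPM. No other member had so small a spread in WT, where its coefficient of variation was 1.97%, and the spread in WDR6-WKO was 12.2%. The means were 61.8 ± 1.22 CPM and 40.3 ± 4.91, with a log2 fold change of -0.62 ± 0.07 (s.e., edgeR adjusted p = 4.76e-05, exact permutation p = 0.0286). It ranked 136 by p among all genes tested, the first of the 9, and *Onecut1* ranked 288. An antisense gene, *Prox1os*, shares 133 exon bases with *Prox1* and was not analysed here.

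Relative to *Hnf4a* in the same library, a measure that does not depend on scaling, both homeobox genes were lower in WDR6-WKO. For each 100 counts of *Hnf4a* there were 15.9 to 16.2 counts of *Prox1* in WT and 12.0, 10.8 and 15.4 in WDR6-WKO replicates 1 to 3. Replicate 3 came close to WT on this measure, and *Hnf4a* was lowest there. Counts of *Onecut1* for each 100 of *Hnf4a* were 1.12 to 1.46 in WT and 0.578 to 0.723 in WDR6-WKO.

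*Hnf4a*, the nuclear receptor with the broadest set of targets in hepatocytes, was the most abundant of the 9 by counts, with 5193 to 8299 reads in each library. It was counted at 397, 375, 376 and 394 CPM in WT and at 345, 325 and 290 CPM in WDR6-WKO. The groups did not overlap, although the lowest WT and the highest WDR6-WKO library differed by less than the range within WDR6-WKO. The means were 385 ± 11.4 CPM and 320 ± 27.7, a log2 fold change of -0.27 ± 0.06 (s.e., edgeR adjusted p = 0.00502, exact permutation p = 0.0286). Without WDR6-WKO replicate 3 the log2 fold change was -0.21 with an adjusted p of 0.000252 from edgeR. In the annotation *Hnf4a* lies on chromosome 2 from 163506808 to 163572910 with no exon overlap to other genes.

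*Nr5a2*, which drives bile acid and cholesterol genes, was measured at 38.3, 37.2, 38.7 and 45.3 CPM in WT. In WDR6-WKO it stood at 31.1, 30.8 and 38.8 CPM. Replicates 1 and 2 of WDR6-WKO were below all WT libraries and replicate 3 lay within the WT range. The log2 fold change was -0.25 (95% interval -0.45 to -0.06) and missed the threshold in edgeR (adjusted p = 0.0828, exact permutation p = 0.143). Without replicate 3 it was -0.37 with an adjusted p of 0.000267 from edgeR, so this call depends on a single library.

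**Figure D2:**
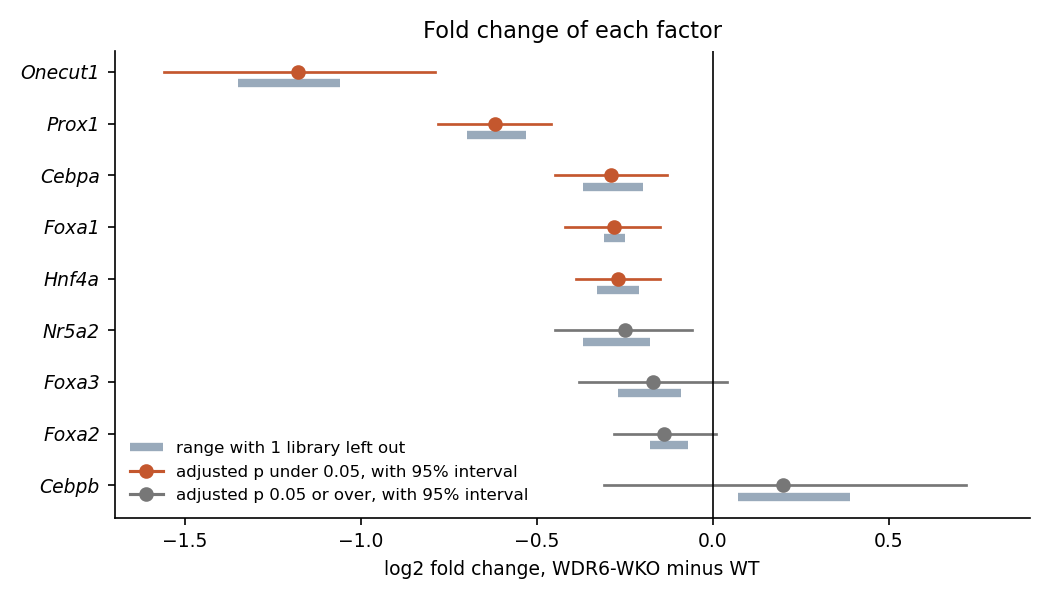
Log2 fold change of each factor, WDR6-WKO minus WT, with its 95% interval from edgeR (thin lines) and the range of the 7 fits that each leave out 1 library (thick bars). Orange points passed an adjusted p of 0.05. *Onecut1* at -1.18 and *Prox1* at -0.62 lie furthest from 0, and *Cebpb* at 0.20 is the one above 0, with the widest interval (-0.31 to 0.72).

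The FOXA factors bind the same forkhead motif and open liver enhancers together. *Foxa1* was at 41.5, 41.1, 40.4 and 44.6 CPM in WT and at 35.5, 33.8 and 33.9 in WDR6-WKO. Its groups did not overlap, and the WDR6-WKO libraries had an s.d. of 0.951 CPM. The log2 fold change was -0.28 ± 0.06 (s.e., edgeR adjusted p = 0.00770, exact permutation p = 0.0286). *Foxa2*, which also responds to fasting and insulin in liver, was at 77.3, 74.0, 71.0 and 68.6 CPM in WT and at 69.1, 69.8 and 59.1 in WDR6-WKO. *Foxa3*, the family member linked to glucose transport in fasting, was at 15.1, 14.2, 14.3 and 14.4 CPM in WT and at 14.4, 11.4 and 12.6 in WDR6-WKO. For both the groups overlapped. Without WDR6-WKO replicate 3 the log2 fold change of *Foxa2* was -0.07 (adjusted p = 0.393 from edgeR). With all libraries the log2 fold changes of *Foxa2* and *Foxa3* were -0.14 (95% interval -0.28 to 0.01, adjusted p = 0.196 from edgeR) and -0.17 (95% interval -0.38 to 0.04, adjusted p = 0.272 from edgeR). Whether the FOXA genes differed from each other in their response was not tested. The makeup of the family overlapped between the genotypes. Of the FOXA counts per kilobase of exon, *Foxa1* held 25.0 ± 1.47% in WT and 23.3 ± 1.20% in WDR6-WKO, *Foxa2* 60.9 ± 1.6% and 62.6 ± 2.42%, and *Foxa3* 14.1 ± 0.228% and 14.2 ± 1.52%. None of the 3 genes shares exon bases or any 50-base sequence with another gene.

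C/EBPα maintains the metabolic functions of resting hepatocytes, whereas C/EBPβ is induced in the acute phase response and in regeneration. *Cebpa* was at 130, 126, 119 and 113 CPM in WT and at 102, 111 and 87.1 in WDR6-WKO. The groups did not overlap, although WT replicate 4 and WDR6-WKO replicate 2 were close. The log2 fold change was -0.29 ± 0.07 (s.e., edgeR adjusted p = 0.0186, exact permutation p = 0.0286). This was the one call among the 5 that was lost when single libraries were left out. The adjusted p was 0.0577 without WT replicate 1, 0.0604 without WT replicate 2 and 0.0536 without WDR6-WKO replicate 1. *Cebpa* lies on chromosome 7 from 35119293 to 35121928 and shares 51 exon bases with an antisense gene, *Gm45091*, which was not analysed here.

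*Cebpb* was the one factor with a positive log2 fold change, and it did not pass the test. Its levels were 140, 130, 116 and 101 CPM in WT and 155, 165 and 99.7 in WDR6-WKO. WDR6-WKO replicates 1 and 2 were above all WT libraries and replicate 3 was below all of them. The log2 fold change was 0.20 ± 0.21 (s.e., 95% interval -0.31 to 0.72, adjusted p = 0.594 in the edgeR test, exact permutation p = 0.486). Without replicate 3 it was 0.39 with an adjusted p of 0.134 from edgeR. *Cebpb* had the largest spread of the 9 in both groups, with a coefficient of variation of 14.2% in WT and 25.1% in WDR6-WKO. On the opposite strand *Tmem189* shares 312 exon bases with it, and *Tmem189* differed little, at 53.0 ± 3.74 CPM and 52.0 ± 1.42. Macrophages also make C/EBPβ, and of 11 Kupffer cell markers 2 were higher with all libraries and 6 without WDR6-WKO replicate 3. *Timd4*, also on that list, had a log2 fold change of -0.48 (adjusted p = 0.0880 from edgeR). The part of macrophages in the level of *Cebpb* was not tested.

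Set against *Cebpa* in the same library, *Cebpb* was higher in every WDR6-WKO library. For each 100 counts of *Cebpa* there were 108, 103, 97.0 and 89.2 counts of *Cebpb* in the WT libraries and 152, 149 and 114 in the WDR6-WKO libraries, in order of replicate number. The means were 99.4 ± 8.22 and 139 ± 21.1, and the ranges did not overlap. Both genes were low in WDR6-WKO replicate 3, and their ratio there stayed above WT although *Cebpb* itself did not.

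**Figure D3:**
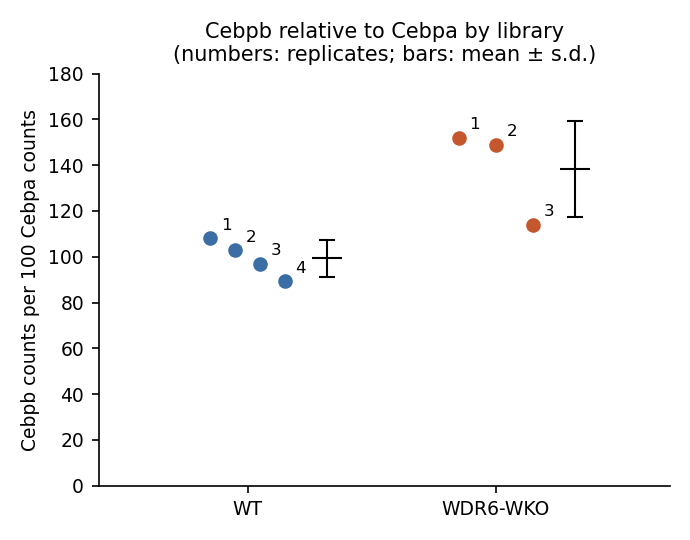
Counts of *Cebpb* for each 100 counts of *Cebpa* in each library, numbered by replicate, with the mean ± s.d. The WT libraries lie between 89.2 and 108 and the WDR6-WKO libraries between 114 and 152.

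Per kilobase of exon the 9 factors spanned a wide range of levels. In WT hepatocytes *Cebpb* stood at 80.9 ± 11.5 CPM per kilobase and *Hnf4a* at 79.8 ± 2.37, which overlapped. *Cebpa* followed at 46.3 ± 2.79, *Foxa2* at 30.7 ± 1.6 and *Foxa1* at 12.6 ± 0.558, each separate from its neighbours. *Prox1* at 7.37 ± 0.145, *Foxa3* at 7.10 ± 0.201 and *Nr5a2* at 6.76 ± 0.626 overlapped, and *Onecut1* was last at 1.15 ± 0.121 CPM per kilobase. In WDR6-WKO the order was the same apart from *Prox1*, which at 4.81 ± 0.585 CPM per kilobase came after *Foxa3* and *Nr5a2*. Its range of 4.17 to 5.33 no longer overlapped that of *Foxa3*, from 5.61 to 7.08. The place of *Nr5a2* depends on the length used, since its principal annotated transcript has 1859 bases and all its exons together 5899. With the former it stood at 21.4 ± 1.99 CPM per kilobase in WT, above *Foxa1*.

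The lowest WDR6-WKO library differed between the factors. It was replicate 3 for 5 of them (*Hnf4a*, *Foxa2*, *Cebpa*, *Cebpb* and *Onecut1*) and replicate 2 for the other 4 (*Nr5a2*, *Foxa1*, *Foxa3* and *Prox1*). In percent of the WT mean, *Prox1* was at 66.8, 56.6 and 72.3 and *Onecut1* at 52.7, 42.9 and 35.4 in WDR6-WKO replicates 1 to 3, so the 2 that fell furthest did not rank the libraries alike.

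Genes whose profile over the 7 libraries was most like that of the 3 factors with the smallest adjusted p were found among 9299 genes with a mean of at least 10 CPM. The measure was the root mean square difference in log2 CPM after the WT mean of each gene was subtracted. The profile of *Prox1* was closest to *Hspb6* (0.0583), which encodes a small heat shock protein, then to *Shroom4* (0.0728) and *Serinc2* (0.0753). Genes with a profile like that of *Onecut1* included *Gjb1* (0.144), the main gap junction gene of hepatocytes, and *Cyp2a5* (0.153). For *Hnf4a* the closest were *Mmp14* (0.0277), *Cd81* (0.0307) and *Hspb1* (0.0324). With 7 libraries such a likeness rests mostly on the size of the difference between the genotypes.

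Other transcription factors and co-regulators of the liver changed in both directions. Of 29 listed, 27 were tested, with edgeR calling 7 lower (25.9%) and 2 higher (7.41%) and a median log2 fold change of -0.07. Of all genes tested 6.18% were lower and 6.65% higher, so the higher share was near that of all genes. *Onecut2*, the paralog of *Onecut1*, fell from 124 ± 4.65 CPM to 87.3 ± 13.3, a log2 fold change of -0.51 (adjusted p = 0.00112 from edgeR). *Xbp1*, a factor of secretory capacity, fell by 0.38 on the log2 scale, *Hhex*, a homeobox gene of the early liver bud, by 0.30, and *Tbx3* by 0.48. Among nuclear receptors and their partners, *Nr0b2* (SHP), a co-repressor induced by bile acids, fell by 0.82, the bile acid receptor gene *Nr1h4* by 0.21 and the xenobiotic receptor gene *Nr1i2* by 0.31. The calls of *Nr1h4* and *Nr1i2* were lost with scaling by library sizes alone and without any single WT library or WDR6-WKO replicate 2, and that of *Tbx3* without WDR6-WKO replicate 2.

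The 2 that rose are both of the C/EBP family. *Ddit3* (CHOP), a stress-induced partner that blocks DNA binding by other C/EBP proteins, rose from 9.33 ± 1.62 CPM to 31.9 ± 8.94, a log2 fold change of 1.77 (adjusted p = 0.000514 from edgeR). *Cebpg*, a short partner of the family, rose by 0.25 on the log2 scale, from 68.5 ± 2.27 to 81.3 ± 3.30 CPM. *Gata6* and *Rxra*, named as those with the largest p, had log2 fold changes of -0.01 each (adjusted p = 0.965 and 0.925 from edgeR). Without WDR6-WKO replicate 3 the list had 15 calls, 9 lower and 6 higher, and the 6 added included *Cebpd*, *Esrra*, *Nr2f6*, *Rxrb* and *Zbtb20*.

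Known targets of the 9 factors were listed by factor, and 34 of 37 were tested. In all, edgeR called 8 lower (23.5%) and 9 higher (26.5%), against 6.18% and 6.65% of all genes. The targets as a whole did not move one way. Their median log2 fold change was -0.13. The target lists overlap with each other and with the marker lists above. *Cps1* and *Pck1* are FOXA targets, C/EBP targets and hepatocyte markers, so these lists count the same falls. *Alb*, *Ttr* and *Tat* are also both FOXA targets and hepatocyte markers, and *Afp* is both a FOXA target and a dedifferentiation marker. A target has many regulators.

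Of 8 FOXA targets edgeR called 5 lower and 0 higher (also 0 higher in DESeq2 or at an unadjusted p under 0.05), with a median log2 fold change of -0.65. *Igfbp1*, a secreted binder of insulin-like growth factors, fell from 625 ± 17.5 CPM to 407 ± 9.76. *Cps1*, the first enzyme of the urea cycle, and *Tdo2*, of tryptophan breakdown, each fell by 0.69 on the log2 scale. *Pck1* fell by 1.73, on 5 to 39 reads in a library, and *Afp* by 0.24, a call that held only without WDR6-WKO replicate 3 among the fits that left out 1 library. *Ttr*, the plasma carrier of thyroid hormone, was at 471 ± 15.9 and 457 ± 10.6 CPM (adjusted p = 0.560 from edgeR), and *Tat*, a tyrosine-degrading enzyme, at 1.5 ± 0.483 and 0.792 ± 0.338 CPM (adjusted p = 0.102).

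HNF4A targets were mixed. Of 9 tested 1 was lower (11.1%) and 2 were higher (22.2%), against 6.18% and 6.65% of all genes. The median log2 fold change was 0.02. *Mttp*, which loads lipid onto apolipoprotein B, fell from 289 ± 5.50 CPM to 235 ± 9.72, whereas *Apoa4* rose from 35.8 ± 3.90 to 58.9 ± 12.7 CPM and *Apoa2* from 132 ± 8.92 to 158 ± 19.3. The call of *Apoa2* was lost without WT replicate 1, 3 or 4 or WDR6-WKO replicate 1 or 2, and that of *Apoa4* without WDR6-WKO replicate 2 or under the replicate block. The clotting factor gene *F9* and *Apoc3*, an inhibitor of triglyceride clearance, had log2 fold changes of 0.02 and 0.06 and did not pass the test (adjusted p = 0.906 and 0.608 from edgeR).

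C/EBP targets were listed as metabolic and acute phase genes. Of 7 metabolic targets 2 were lower, *Cps1* and *Pck1*, and 2 higher, the arginase gene *Arg1* from 27.4 ± 1.39 CPM to 46.8 ± 4.94 and the hepcidin gene *Hamp* from 18.4 ± 3.21 to 41.9 ± 7.77. The lower and the higher calls were each 28.6% of the metabolic targets tested, against 6.18% and 6.65% of all genes. *Gys2* was at 0.820 ± 0.245 and 0.734 ± 0.110 CPM. Of 8 acute phase targets 4 were higher and 0 lower (0 lower in DESeq2 after adjustment, and at an unadjusted p under 0.05 0 lower in edgeR and 1 in DESeq2 and in limma-voom), with a median log2 fold change of 0.42. *Saa3* rose from 19.4 ± 1.14 to 51.0 ± 16.2 CPM, *Saa1* from 321 ± 26.5 to 645 ± 184, *Orm2* from 41.9 ± 3.27 to 65.2 ± 6.64 and *Orm1* from 636 ± 42.6 to 734 ± 30.8. *Hpx* had a log2 fold change of 0.00 and *Crp* of -0.52 (adjusted p = 0.996 and 0.292 from edgeR). The higher count was 5, with *Saa2* added, in DESeq2 and limma-voom. It was also 5 with at least 10 counts required in every sample and without WDR6-WKO replicate 3. It was 3 without WT replicate 3 (*Saa1* lost) or WDR6-WKO replicate 2 (*Orm1* lost). It was 2, with *Orm1* and *Saa1* lost, under the replicate block and without WT replicate 1, 2 or 4 or WDR6-WKO replicate 1. *Crp* was called lower without WT replicate 1. *Orm1* and *Orm2*, and *Saa1* with its relatives, are close paralogs, and the way reads were divided between them is not known.

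Of 6 NR5A2 targets 2 were lower (33.3%) and 1 higher (16.7%), against 6.18% and 6.65% of all genes. Among the lower was *Nr0b2*, which fell from 3.87 ± 0.329 CPM to 2.19 ± 0.0749. The bile salt exporter gene *Abcb11* rose from 36.4 ± 2.03 to 43.5 ± 4.34 CPM, a call lost without any single WT library or WDR6-WKO replicate 1 and under the replicate block. *Scarb1*, the receptor for high-density lipoprotein, and *Abcg8*, of the sterol exporter, had log2 fold changes of -0.01 and -0.43 and did not pass the test (adjusted p = 0.897 and 0.309 from edgeR). Of 3 ONECUT1 targets tested, *Ttr* and *Tat* among them, 0 passed in edgeR or in DESeq2, and 1 had an unadjusted p under 0.05. Without WDR6-WKO replicate 3, 1 was called lower. The target lists also named *Cyp7a1*, *Cyp8b1* or *G6pc*, which were not analysed here.

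**Figure D4:**
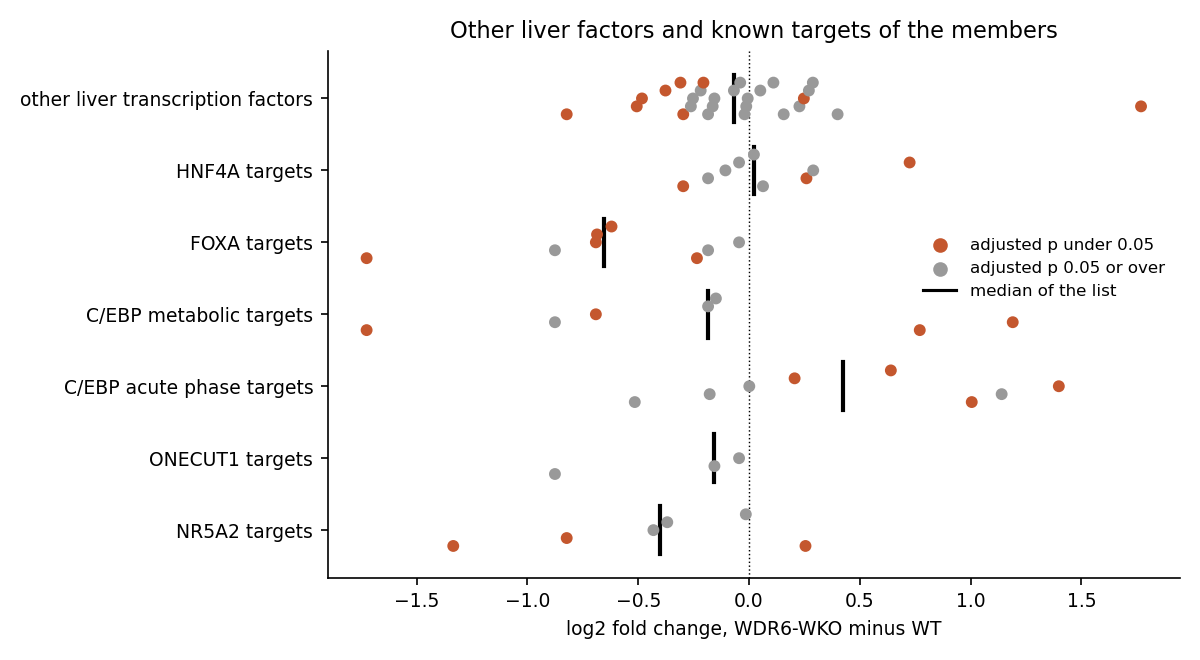
Log2 fold change, WDR6-WKO minus WT, of each gene tested on the list of other liver transcription factors and on the lists of known targets. Orange points passed edgeR at an adjusted p of 0.05 and black lines are medians, at -0.65 for FOXA targets and 0.42 for acute phase targets of C/EBP.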

How the data were processed

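Reads of 4 WT and 3 WDR6-WKO hepatocyte libraries were aligned by the authors to mouse build 38 (mm10) with Bowtie2 2.2.3, and whole-number counts per gene symbol were deposited without normalization. The counting tool, annotation and strand setting are not given in the sources used here. From these counts edgeR 4.0.16 (R 4.3.3) gave TMM-scaled CPM and a robust quasi-likelihood test on the 14779 of 14819 genes that passed its expression filter, with Benjamini-Hochberg adjustment over all genes tested. Totals ran from 17816913 to 23668940 counts, and the biological coefficient of variation was 7.40%, and counting error weighs most on genes with few reads, such as *Onecut1*, *Nr0b2*, *Tat*, *Gys2* and *Pck1*. Standard errors came from the fold change and the F statistic. Permutation tests ran over all 35 arrangements of log2 CPM (prior count 2). The labels do not state which animals gave which sample. The fit was tested on simulated data.

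The members and lists were chosen with earlier results of these data known. All 9 members are named. Listed genes are named if the adjusted p was under 0.05 (up to 10 by p), with the 2 of largest p, and *Ttr* and *Tat* recur. Some genes that this rule names are not reported here. Alternatives were DESeq2 1.42.0, limma-voom (limma 3.58.1), other scaling and filters, the replicate block, each library left out and other thresholds. Annotation was GENCODE on GRCm38, and promoters were RefSeq on GRCm38.p6. Proteins were not analysed here.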

Additional observations from a re-analysis of the deposited data

Results flagged for a closer look

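In WT hepatocytes *Onecut1* stood at 5.48 CPM in replicate 3, apart from the other WT libraries, which lay between 4.44 and 4.57 CPM. The gap to the nearest was 0.873 of the range of the group, past Dixon's 95% limit for 4 samples. Chance alone marks about 1 in 20 such groups, and 58 genes were looked at in this way. Without WT replicate 3 the log2 fold change of *Onecut1* was -1.10 (edgeR adjusted p = 0.00255).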

How the results depend on the processing

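The 9 members were refitted under 14 alternatives. Of the 126 member values, 122 kept their direction and their side of the threshold, 0 turned direction, *Cebpa* lost its call in 3 and *Nr5a2* gained one in 1, each with a single library left out. The members called numbered 4 to 6 and the DEGs among them 2 to 3 with single libraries left out. Calls among the other liver transcription factors ran from 6 (without WDR6-WKO replicate 2) to 15 (without WDR6-WKO replicate 3) and calls among all targets from 12 to 20, against 9 and 17 with all libraries. In every alternative 4 of the 5 members called, 6 of the 9 transcription factors and 10 of the 17 targets kept their calls. *Nr1h4*, *Nr1i2* and *Tbx3*, and among targets *Abcb11*, *Afp*, *Apoa2*, *Apoa4*, *Orm1* and *Saa1* each lost theirs in at least 1. *Pck1* went without its call only under the filter of at least 10 counts in every sample. That filter removed *Pck1* before the test, as WDR6-WKO replicates 2 and 3 held 8 and 5 reads. For the others the cause was not tested. Same-numbered samples deviated together only weakly (r of 0.0396, 0.0202 and 0.0379), and samples of different number gave r of -0.131 to 0.123. The labels state no pairing. Deviations from the means of so few libraries cannot decide whether same-numbered samples were prepared together. With the replicate block 5 members, 10 of the other transcription factors and 12 targets were called. Among the members depth limited *Onecut1* the most, with 30 to 103 reads in a library.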
